A study of Mus musculus with 6 samples.

Results

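The genes described here are 28 genes of cholesterol synthesis and of SREBP2, the transcription factor that controls it, measured in mouse LSK cells after haloperidol or DMSO. They were taken as a list of symbols from the deposited table of 38926 genes, and all 28 have a row in it. Of these, 21 encode enzymes or scaffold proteins of the route from acetyl-CoA to cholesterol or its geranylgeranyl branch, 6 encode SREBP2 and the proteins that hold, carry and cut it, and 1, Stard4, encodes a carrier of cholesterol in the cytosol. The list does not hold every gene of the pathway. Sc4mol is now called Msmo1 and 0610007P14Rik is now called Erg28. LSK cells are the bone marrow fraction without lineage markers and with the surface proteins Sca-1 and Kit, in which blood stem cells and multipotent progenitors lie. Wild-type C57BL/6 mice aged 8 to 12 weeks received injections of haloperidol, an antipsychotic that blocks dopamine receptors, on 3 consecutive days, and the controls received DMSO, its vehicle. Cells came from crushed and digested femur and tibia, and the drug or the vehicle was also present while they were sorted. There were 3 libraries in each group, and the labels do not say whether these came from separate mice, so that the p-values measure the spread between samples that may be technical.

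Cholesterol is built from acetyl-CoA through mevalonate, the isoprenoid farnesyl diphosphate, squalene and lanosterol. SREBP2 is made as a membrane protein of the endoplasmic reticulum. When sterols are scarce its escort SCAP carries it to the Golgi, where a pair of proteases cut it and free the part that enters the nucleus and switches on the genes of synthesis and uptake. When sterols are plentiful INSIG proteins hold SCAP and SREBP2 back. Srebf2 and Insig1 are themselves known SREBP2 targets, and the factor is known to act with NF-Y and Sp1 at promoters. Haloperidol and related drugs are known to inhibit enzymes of the last steps in cultured cells, among them the products of Dhcr7 and Ebp. No sterol and no protein was measured here.

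The promoters of 4 members are shown because Insig1 and Cyp51 had the largest falls of all members, while those of Srebf2 and Hmgcs1 hold letters of a sterol response element, the site that SREBP2 binds. Each window runs from 250 bases before to 50 bases after the start site, is 300 bases long and comes from RefSeq on GRCm38.p6. They lie at chr5:28071162-28071461, plus strand (Insig1), chr5:4104648-4104947, minus strand (Cyp51), chr15:82147019-82147318, plus strand (Srebf2) and chr13:119690101-119690400, plus strand (Hmgcs1). Capitals mark the NF-Y box CCAAT on either strand (ATTGG when read on the other one) and the sterol response letters TCACNCCAC or, shortened by 1 base, TCACNCCA.
Insig1: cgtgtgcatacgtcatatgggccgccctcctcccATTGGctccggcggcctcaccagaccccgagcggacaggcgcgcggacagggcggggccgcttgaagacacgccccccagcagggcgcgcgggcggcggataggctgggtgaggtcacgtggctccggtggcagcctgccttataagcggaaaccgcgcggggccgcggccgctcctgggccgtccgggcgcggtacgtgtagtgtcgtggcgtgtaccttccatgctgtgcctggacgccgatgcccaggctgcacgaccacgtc
Cyp51: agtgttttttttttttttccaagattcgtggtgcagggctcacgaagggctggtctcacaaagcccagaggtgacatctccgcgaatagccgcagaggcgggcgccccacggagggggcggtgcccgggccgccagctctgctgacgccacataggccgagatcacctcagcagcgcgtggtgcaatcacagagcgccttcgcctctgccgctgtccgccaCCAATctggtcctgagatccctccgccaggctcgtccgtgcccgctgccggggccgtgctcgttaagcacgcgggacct
Srebf2: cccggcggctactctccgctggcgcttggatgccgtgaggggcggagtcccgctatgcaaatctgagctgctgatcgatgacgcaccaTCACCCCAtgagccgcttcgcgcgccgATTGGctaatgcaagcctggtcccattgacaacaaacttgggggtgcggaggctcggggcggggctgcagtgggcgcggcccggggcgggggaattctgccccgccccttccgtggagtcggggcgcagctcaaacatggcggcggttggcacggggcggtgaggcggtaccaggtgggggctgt
Hmgcs1: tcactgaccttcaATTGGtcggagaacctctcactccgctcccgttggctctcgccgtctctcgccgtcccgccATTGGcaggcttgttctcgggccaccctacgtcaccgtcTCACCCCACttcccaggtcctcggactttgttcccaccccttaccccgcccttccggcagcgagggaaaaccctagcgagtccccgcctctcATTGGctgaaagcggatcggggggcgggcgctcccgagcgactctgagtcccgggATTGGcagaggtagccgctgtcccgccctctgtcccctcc

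Windows were used for 24 of the 28 members, and a gene was counted when any of its windows held the letters on either strand. The members for which no window was used, Fdps, Fdft1, Sqle and Stard4, all fell with haloperidol, so the counts leave out only members that fell. The letters TCACNCCAC were found in 1 of these 24, Hmgcs1, and in 1.44% of the 27025 genes with a window in RefSeq. With TCACNCCA, a shorter form chosen after the windows had been seen, they were found in 3 of 24 (Hmgcs1, Srebf2 and Sc4mol) and in 4.97% of all genes. The box CCAAT stood in 19 of 24, and in 41.1% of all genes, or 43.8% of the 8099 genes tested here that could be matched by symbol. The Sp1 box GGGCGG stood in 21 of 24, against 38.2% of all genes and 69.7% of those tested. Among the 8 members with a window used here that fell with haloperidol, 8 held CCAAT and 8 held GGGCGG. Among the other 16 these were 11 and 13. These are matches of letters, which do not show binding.

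Between 8523556 and 8969024 reads per library were assigned to genes. Scaled to depth (RPM), the upper limit for a gene with 0 reads is 0.334 to 0.352, counting error only.

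LSK marker genes were present, with a summed level of 1350 to 1410 FPKM over 10 genes in DMSO and 1210 to 1250 FPKM in haloperidol. FPKM are fragments scaled to gene length and library depth. In bulk RNA, fewer cells of a type and less RNA per cell cannot be told apart. Summed markers also moved without overlap between groups for B cells (6 genes, 34.6 to 36.2 FPKM in DMSO and 22.4 to 25 in haloperidol), megakaryocytes (5 genes, 76.5 to 84.3 and 101 to 114), mast cells and basophils (4 genes, 37.1 to 46 and 70.9 to 88.1) and endothelium (5 genes, 29.9 to 32.7 and 24.9 to 25.7). Single genes carried most of the shift in some of these sums. Itga2b, at 18.7 ± 1.13 FPKM in DMSO and 44.8 ± 4.06 in haloperidol, was the 1 of 5 megakaryocyte genes past the threshold. Pf4, Ppbp, Gp1bb and Gp9 overlapped between groups, with lower means in haloperidol for Pf4 and Ppbp and higher means for Gp1bb and Gp9. Cd79b (32.2 and 22.8 FPKM in the mean) made up most of the B cell sum. The endothelial sum came almost wholly from Pecam1 (11.23 and 11.38 FPKM in the mean), Tie1 (14.55 and 10.09) and Emcn (4.92 and 3.83). Cdh5 was at 0 FPKM in DMSO and a mean of 0.0285 in haloperidol, and Kdr at means of 0.222 and 0.0257. These genes were picked out after their values were seen. The sums of neutrophils, macrophages, erythroid cells, stroma, and T and NK cells overlapped, with Cd8a and Bglap at 0 in all 6 libraries. Of 12 mitosis genes 3 fell (Aurka, Plk1 and Cenpe) and 0 rose in the limma test, where 13% of all genes tested fell and 11.5% rose. The part of these shifts in the results below was not tested.

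The comparison asked which of these transcripts differed in LSK cells of haloperidol-treated mice. In 27 testable members, 12 fell and 0 rose. The 12 were spread along the route, from Hmgcs1 through Mvk, Mvd, Idi1, Fdps, Fdft1, Sqle, Cyp51 and Sc4mol, and they included Srebf2, Insig1 and Stard4. Their mean FPKM dropped by between 23.5% (Mvk) and 60.1% (Insig1). The test was limma on log2(FPKM + 1) over the 11436 genes with a mean of at least 1 FPKM, with Benjamini-Hochberg adjustment at 0.05. The share of members that fell, 44.4%, stands beside 13% of all genes tested, and no member rose where 11.5% of all genes did. At an unadjusted p below 0.05, 1 member was higher (Scap), and voom on recovered reads called that same member. The median log2 fold change was -0.33 over the 27 members and 0.00 over all genes. Mbtps2, at a mean below 1 FPKM, was not tested, and Tm7sf2 reached that limit through its level in DMSO.

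The libraries of both groups were apart for 20 of the 27. In 18 (66.7%) every haloperidol library lay below every DMSO library, as in 22.1% of all genes tested, and in 2 (7.41%) every haloperidol library lay above, as in 21% of all genes. Of the 12 members that fell, 11 were among the 5% of tested genes with the most negative fold changes. Within the haloperidol group, replicate 3 was the lowest library for 9 of the 12 and replicate 1 for Mvd and Fdft1. For Sc4mol, replicates 1 and 3 were equally low at 3.727 FPKM. Replicate 3 was also the highest for 2 of the 12, Mvd and Fdft1.

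**Figure D1:**
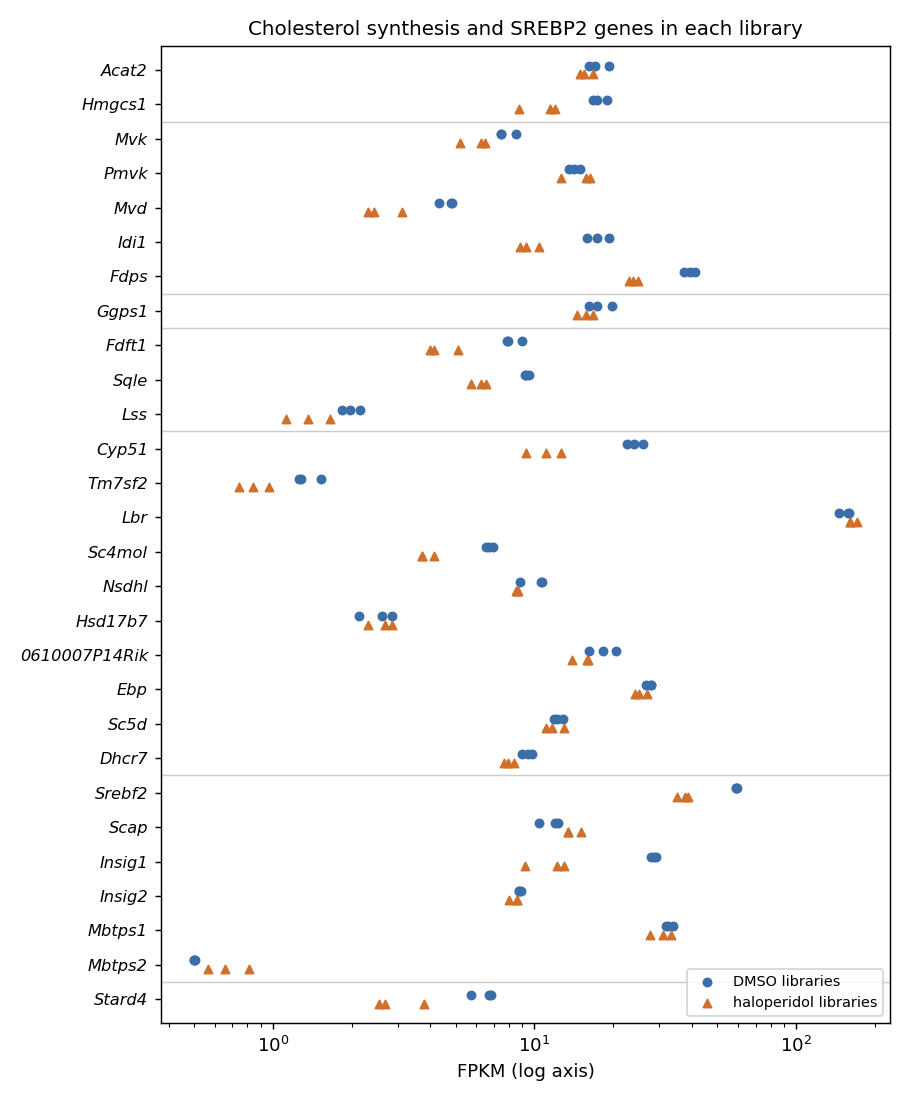
FPKM of the 28 genes in each library on a log axis, in pathway order from top to bottom, with lines between roles; circles are the 3 DMSO and triangles the 3 haloperidol libraries. The groups are widely apart for Insig1, Cyp51 and Srebf2 and overlap for Pmvk, Hsd17b7 and Sc5d.

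At the entry of the pathway, the second enzyme fell and the one before it did not pass the test. Hmgcs1, which makes HMG-CoA, was at 16.8, 18.9 and 17.4 FPKM in DMSO replicates 1, 2 and 3 and at 12.0, 11.5 and 8.72 FPKM in haloperidol replicates 1, 2 and 3. The groups did not overlap, and haloperidol replicate 3 was the lowest. Its log2 fold change was -0.68 (SE 0.11, adjusted p = 0.00339). Acat2, the cytosolic thiolase that joins a pair of acetyl-CoA, was at 16.2 to 19.3 FPKM in DMSO and 14.9 to 16.7 FPKM in haloperidol, and the groups overlapped. Its log2 fold change was -0.15, with a 95% interval of -0.33 to 0.03 (adjusted p = 0.202), which does not reach the fall of Hmgcs1.

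From mevalonate to farnesyl diphosphate, 4 of 5 genes fell. Idi1, the isomerase that makes the reactive isoprene unit, was at 15.9, 17.3 and 19.2 FPKM in DMSO and 9.32, 10.4 and 8.84 FPKM in haloperidol, with no overlap. Its log2 fold change was -0.81 (SE 0.09, adjusted p = 5.54e-04). Fdps, which builds farnesyl diphosphate, had the highest FPKM of the 5, at 39.2, 37.3 and 41.1 FPKM against 24.9, 23.7 and 22.9 FPKM. All 3 haloperidol libraries were far below the lowest DMSO library, with the log2 fold change being -0.69 (SE 0.06, with an adjusted p of 2.01e-04).

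Mvd, the decarboxylase, was at 4.33, 4.84 and 4.79 FPKM in DMSO and 2.31, 2.43 and 3.12 FPKM in haloperidol. Those levels rest on 68 to 76 reads and 35 to 49 reads per library, and the groups were apart (log2 fold change -0.65, SE 0.11, adjusted p = 0.00451). Mvk, the kinase at the start of this stretch, was at 7.42, 8.53 and 7.46 FPKM against 6.48, 6.23 and 5.21 FPKM. The groups did not overlap but lay close, and the log2 fold change was -0.34 (SE 0.10, adjusted p = 0.0352). That call was lost without DMSO replicate 1 (adjusted p = 0.0593), 2 (0.12) or 3 (0.0643), without haloperidol replicate 2 (0.06) or 3 (0.0868), and with no filter on low values (0.0871). It is the only one of the 12 calls to be lost in any of the 13 other settings. Pmvk, the kinase that acts right after Mvk, was at 13.6 to 14.9 FPKM in DMSO and 12.6 to 16.3 FPKM in haloperidol (log2 fold change 0.06, 95% interval -0.16 to 0.28, adjusted p = 0.698). Its groups overlapped, and the interval does not hold the fall of Mvk, Mvd, Idi1 or Fdps. The interval of Mvk itself (-0.56 to -0.12) overlapped that of Pmvk, and a difference between these genes was not tested.

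Farnesyl diphosphate is the branch point, and the gene on the side branch did not pass while 2 of 3 on the way to lanosterol fell. Ggps1, which makes geranylgeranyl diphosphate for protein prenylation, was at 17.3, 16.1 and 19.8 FPKM in DMSO and 14.5, 16.7 and 15.7 FPKM in haloperidol. Haloperidol replicate 2 lay above DMSO replicate 2, and the log2 fold change was -0.17 (95% interval -0.37 to 0.03, adjusted p = 0.187). Fdft1, squalene synthase and the committed step to sterols, was at 7.92, 8.94 and 7.87 FPKM against 3.98, 4.13 and 5.10 FPKM. Its groups were apart, and the log2 fold change was -0.78 (SE 0.10, adjusted p = 0.00125).

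Sqle, the epoxidase that is a control point of the pathway, was at 9.24, 9.51 and 9.26 FPKM in DMSO and 6.22, 6.51 and 5.73 FPKM in haloperidol. Both groups were tight and apart (log2 fold change -0.53, SE 0.07, adjusted p = 0.00168). Lss, which closes the rings to give lanosterol, was at 1.97, 1.84 and 2.15 FPKM against 1.12, 1.66 and 1.36 FPKM. Its haloperidol libraries all lay below its DMSO libraries, but it did not pass (log2 fold change -0.33, SE 0.13, adjusted p = 0.0984). With voom on recovered reads its log2 fold change was -0.53 and it did pass (adjusted p = 0.0104), whereas with a pseudocount of 0.1 FPKM it was -0.51 and did not (adjusted p = 0.108).

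Between lanosterol and cholesterol, 2 of 10 genes fell, 8 did not pass, and the largest fall of any enzyme came first. Cyp51, the lanosterol demethylase that opens this stretch, was at 22.6, 24.1 and 25.9 FPKM in DMSO and 11.1, 12.6 and 9.30 FPKM in haloperidol. The highest haloperidol library was far below the lowest DMSO library, and the log2 fold change was -1.08 (SE 0.10, adjusted p = 3.21e-04). Sc4mol, the methylsterol oxidase, was at 6.70, 6.52 and 6.93 FPKM against 3.73, 4.12 and 3.73 FPKM. No libraries of the groups met, and the log2 fold change was -0.67 (SE 0.08, adjusted p = 8.70e-04).

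The other enzymes that work with Sc4mol to strip methyl groups did not pass. Nsdhl, the sterol dehydrogenase, was at 8.80, 10.6 and 10.6 FPKM in DMSO and 8.60, 8.48 and 8.66 FPKM in haloperidol. The groups were apart only by the margin below DMSO replicate 1, and the log2 fold change was -0.20 (95% interval -0.39 to -0.01, adjusted p = 0.122). 0610007P14Rik, the scaffold that gathers these enzymes, was at 16.18, 18.21 and 20.47 FPKM against 16.03, 13.92 and 15.91 FPKM (log2 fold change -0.24, adjusted p = 0.0944). It passed with voom (adjusted p = 0.0415), and both it and Nsdhl passed without DMSO replicate 1 (adjusted p = 0.0448 and 0.0367). Hsd17b7, the ketoreductase of the same step, overlapped fully, at 2.13 to 2.87 FPKM in DMSO and 2.31 to 2.84 FPKM in haloperidol (log2 fold change 0.03, 95% interval -0.24 to 0.31).

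A pair of reductases can follow Cyp51. Tm7sf2 was at 1.29, 1.26 and 1.53 FPKM in DMSO and 0.967, 0.743 and 0.838 FPKM in haloperidol. Its libraries were apart, but at 23 to 48 reads each it did not pass (log2 fold change -0.35, SE 0.13, adjusted p = 0.0886), while voom gave -0.67 (adjusted p = 0.0437). Lbr, which is also the lamin B receptor of the nuclear envelope, had the highest FPKM of the members, at 146, 158 and 159 FPKM in DMSO and 171, 161 and 161 FPKM in haloperidol. All haloperidol libraries lay above the DMSO libraries by a small margin (log2 fold change 0.09, 95% interval -0.03 to 0.21, adjusted p = 0.226).

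The last enzymes showed small differences. Dhcr7, the reductase that yields cholesterol, was at 9.42, 9.80 and 8.94 FPKM in DMSO and 8.36, 7.94 and 7.65 FPKM in haloperidol. The groups were apart, and the log2 fold change was -0.21 (SE 0.07, adjusted p = 0.0634). Ebp, the sterol isomerase, was at 26.70 to 28.01 FPKM against 24.2 to 26.9 FPKM (log2 fold change -0.11, 95% interval -0.25 to 0.02), and Sc5d, the desaturase between them, at 11.92 to 12.81 FPKM against 11.03 to 12.97 FPKM (-0.05, 95% interval -0.22 to 0.12). Both overlapped, and neither interval reaches the fall of Cyp51 or Sc4mol. These intervals describe each gene on its own, and differences between genes in their change were not tested across the list.

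**Figure D2:**
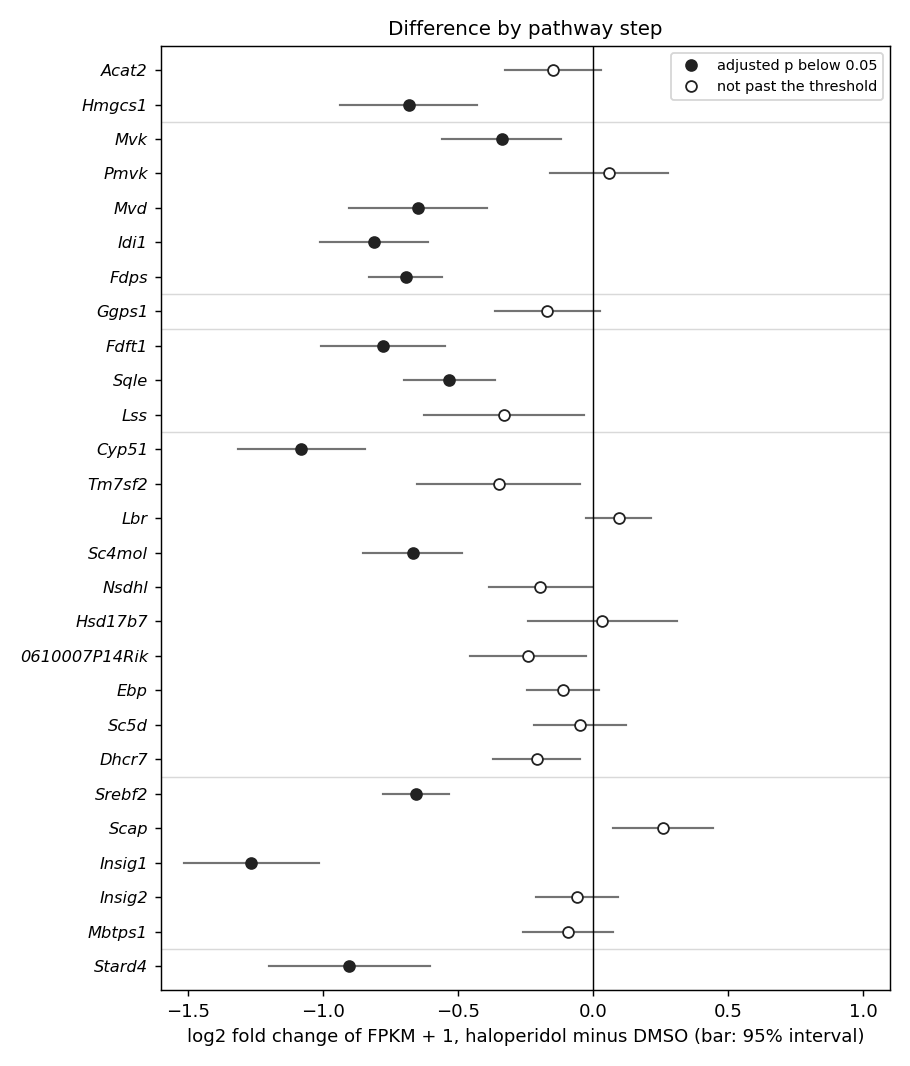
Log2 fold change of FPKM + 1 (haloperidol minus DMSO) for the 27 tested genes in pathway order, with 95% intervals; filled points have an adjusted p below 0.05. Filled points run from Hmgcs1 to Sc4mol with gaps at Pmvk, Ggps1, Lss, Tm7sf2 and Lbr, and below Sc4mol they are Srebf2, Insig1 and Stard4.

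Among the genes that control SREBP2, Srebf2 and Insig1 fell, while Scap, Insig2 and Mbtps1 did not pass the threshold. Differences between these genes in their change were not tested. Srebf2 (chromosome 15, 82147269 to 82205379, GRCm38) was at 58.8, 59.3 and 58.7 FPKM in DMSO and 38.6, 37.6 and 35.0 FPKM in haloperidol. The DMSO libraries were nearly equal and the haloperidol libraries all far lower, and the log2 fold change was -0.66 (SE 0.05, adjusted p = 0.0001401). Insig1 (chromosome 5, 28071412 to 28078662), whose promoter is printed above, was at 29.27, 28.003 and 28.74 FPKM against 12.9, 12.2 and 9.20 FPKM. That was the largest fall of the 27, and the log2 fold change was -1.27 (SE 0.11, adjusted p = 2.05e-04), and 0.306% of all genes tested had a lower fold change.

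Insig2, its paralog with the same retention role, was at 8.75, 8.85 and 8.72 FPKM in DMSO and 8.57, 8.58 and 8.02 FPKM in haloperidol. Its haloperidol libraries were all lower, but the mean dropped by 4.37% only (log2 fold change -0.06, 95% interval -0.21 to 0.09, adjusted p = 0.56). The ratio of Insig1 to Insig2, both in FPKM, was 3.345, 3.164 and 3.297 in DMSO and 1.51, 1.42 and 1.15 in haloperidol. It was lower in 3 of 3 haloperidol libraries, and the exact two-sided permutation test gave p = 0.1, the smallest that 3 against 3 allows. This ratio was chosen after the values were seen.

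Scap, the escort, was higher in haloperidol but not past the threshold. It was at 12.0, 12.3 and 10.4 FPKM in DMSO and 13.4, 15.1 and 13.5 FPKM in haloperidol, with every haloperidol library above every DMSO library. The log2 fold change, 0.26 (SE 0.08), had an adjusted p of 0.05002, which lies just above the threshold, and it was not counted as a rise. It passed in 5 of the 13 other settings, over which the adjusted p ranged from 0.0189 to 0.149. Mbtps1, the protease that makes the first cut, overlapped at 31.8 to 33.9 FPKM and 27.5 to 33.3 FPKM (log2 fold change -0.09, 95% interval -0.26 to 0.07). Mbtps2, the protease of the second cut, lay below the mean of 1 FPKM needed for the test, on 44 to 73 reads per library. It was at 0.499, 0.501 and 0.505 FPKM in DMSO and 0.564, 0.657 and 0.811 FPKM in haloperidol. The haloperidol libraries were higher, and with no filter on low values its adjusted p was 0.314.

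**Figure D3:**
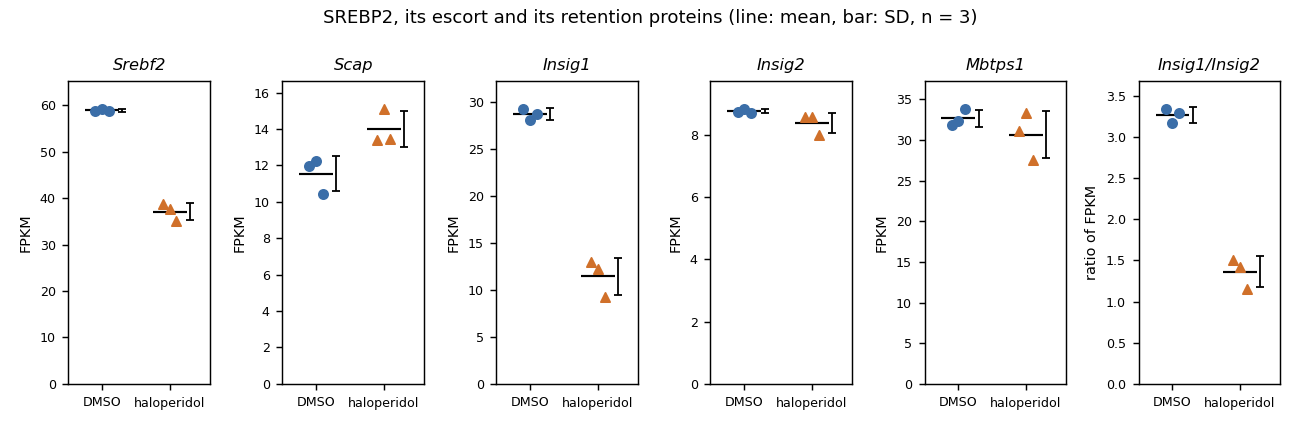
FPKM of Srebf2, Scap, Insig1, Insig2 and Mbtps1, and the ratio of Insig1 to Insig2, per library; each vertical axis starts at 0, lines are means and bars are SD (n = 3). Srebf2, Insig1 and the ratio are lower in all 3 haloperidol libraries, Scap is higher in all 3, and Mbtps1 overlaps.

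Stard4, which moves cholesterol between membranes and is a known SREBP2 target, had the third largest fall of the list. It was at 6.85, 5.73 and 6.73 FPKM in DMSO and 3.79, 2.68 and 2.55 FPKM in haloperidol. The highest haloperidol library was well below the lowest DMSO library, and the log2 fold change was -0.90 (SE 0.13, adjusted p = 0.00205).

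FPKM are scaled to the gene lengths behind the deposited values, which no source used here states, so the order of levels between genes depends on those lengths. On that scale, in DMSO, Lbr (154 ± 7.13 FPKM, SD, n = 3) stood above Srebf2 (58.9 ± 0.311), Fdps (39.2 ± 1.90), Mbtps1 (32.7 ± 1.05), Insig1 (28.7 ± 0.637) and Ebp (27.5 ± 0.712). Insig1 and Ebp differed by about the spread of their libraries. In haloperidol Srebf2 was at 37.1 ± 1.84 FPKM and Mbtps1 at 30.6 ± 2.92, while Insig1, at 11.5 ± 1.98 FPKM, had dropped below Ebp (25.4 ± 1.36) and stood within the spread of Cyp51 (10.99 ± 1.65) and Sc5d (11.9 ± 0.986). The lowest members in both groups were Tm7sf2, at 1.36 ± 0.149 and 0.849 ± 0.113 FPKM, and Mbtps2, at 0.502 ± 0.00271 and 0.677 ± 0.125 FPKM.

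**Figure D4:**
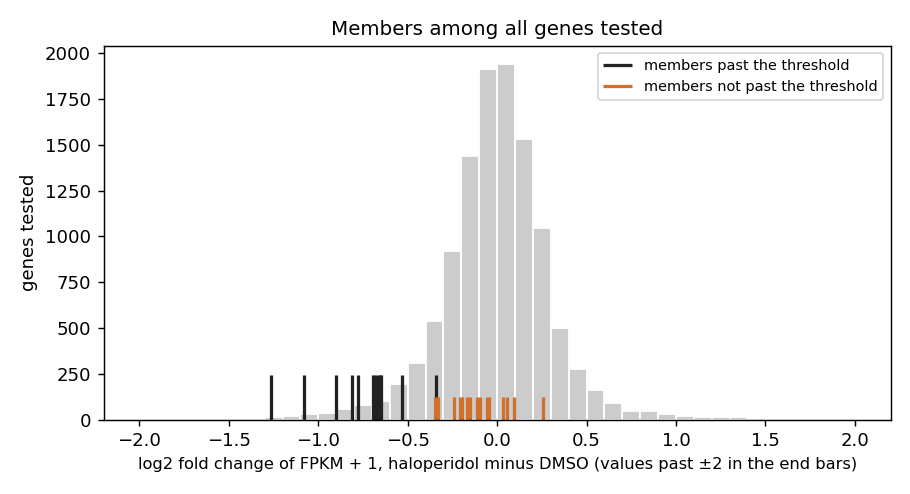
Log2 fold changes of all 11436 genes tested (grey bars, number of genes per step of 0.1), with the 12 members past the threshold as long black ticks and the 15 others as short orange ticks. The black ticks lie between -1.27 and -0.34, in the left tail, and the orange ticks between -0.35 and 0.26.

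Other genes around the pathway were taken from 3 lists chosen with the members, and their counts stand beside the 13% of all genes tested that fell and the 11.5% that rose. No test compared these lists with the members. Of 23 tested genes that supply acetyl-CoA or use isoprenoids, 3 fell and 2 rose, with a median log2 fold change of -0.05. Dhdds, of dolichol synthesis, went from 14.7 ± 0.754 to 11.4 ± 0.796 FPKM and Fnta, the shared subunit of prenyl transferases, from 85.2 ± 5.71 to 72.0 ± 1.71 FPKM. Coq2, of ubiquinone synthesis, fell from 41.25 ± 2.51 to 35.7 ± 0.850 FPKM. Srd5a3, also of dolichol synthesis, rose from 6.28 ± 0.418 to 8.37 ± 0.912 FPKM. The other rise was Pdss1, also of ubiquinone synthesis, at the edge of the threshold (adjusted p = 0.04999) and named after its value was seen.

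Of 23 tested regulators and transport partners of SREBP proteins, 1 fell and 1 rose (median log2 fold change -0.05). Sec24d, a coat protein of the vesicles that leave the endoplasmic reticulum, rose from 10.8 ± 0.752 to 16.6 ± 0.758 FPKM (log2 fold change 0.57, adjusted p = 0.00108). Tmub1 fell from 15.1 ± 1.03 to 12.6 ± 0.177 FPKM. Srebf1, the paralog of Srebf2 that mainly drives fatty acid synthesis, was at 15.4, 17.1 and 15.7 FPKM in DMSO and 13.9, 14.3 and 14.5 FPKM in haloperidol. It was lower in all 3 haloperidol libraries but did not pass (log2 fold change -0.16, 95% interval -0.31 to -0.02, adjusted p = 0.0984), and this gene was picked out after its value was seen.

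Of 20 tested genes of sterol handling inside the cell, 3 fell and 1 rose (median log2 fold change -0.01). Gramd1a, which carries cholesterol from the plasma membrane to the endoplasmic reticulum, was at 71.8, 70.7 and 76.8 FPKM in DMSO and 49.1, 47.8 and 47.7 FPKM in haloperidol. Its groups were far apart, and the log2 fold change was -0.59 (SE 0.05, adjusted p = 2.03e-04). Stard3, a late endosomal cholesterol transporter, fell from 16.27 to 17.97 FPKM in the DMSO libraries to 10.2 to 12.8 FPKM in the haloperidol libraries (adjusted p = 0.00434). Osbpl9 fell from 35.9 ± 1.71 to 30.4 ± 2.73 FPKM (adjusted p = 0.0497), and Scarb2, a lysosomal membrane protein, rose from 15.7 ± 1.62 to 20.4 ± 2.09 FPKM (adjusted p = 0.0265).

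The libraries keep no strand, and some members share exon bases with another gene in the GENCODE M21 annotation of GRCm38. Hmgcs1, Idi1, Ggps1, Fdft1, Lss, Cyp51, Lbr and Scap share bases with a gene on the opposite strand, among them 774 bases of Fdft1 with the protease gene Ctsb and 166 bases of Cyp51 with Akap9. Fdps, Tm7sf2, Lbr and Mbtps2 share bases with a gene on the same strand, in Mbtps2 2867 bases with Yy2. Reads there cannot be told apart, and how the authors' counting treated them is not given in the sources used here.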

How the data were processed

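RNA sequencing of 3 DMSO and 3 haloperidol libraries was compared. Amplification was by SMART-Seq and library making by Nextera XT, per the labels' protocols, and neither marks strand. Alignment and counting tools are, per the submitters' processing notes, TopHat2 (2.1.1) on mm10 and HTSeq (0.6.1), beside DESeq2 (1.18.1). No source used here gives the annotation release. FPKM were deposited by the authors for 38926 genes, 1 column per library, with 0 columns of other samples.

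Whole reads were recovered from the steps between FPKM values for 100.0% of the 20633 genes above 0, within 0.001 reads. They gave depth and 1 alternative. Chi-square per degree of freedom over genes was 2.92 to 4.75 within groups and 12.95 to 18.32 between groups, and every pair of libraries differed by more than counting noise.

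Genes with a mean of at least 1 FPKM (11436) were tested with limma 3.58.1 in R 4.3.3 on log2(FPKM + 1), which understates the change of low genes, two-sided, without covariates and with a prior variance that follows the mean level. Benjamini-Hochberg adjustment ran over all of them, at a threshold of 0.05. All 28 members are named, and from each further list up to 4 genes with the smallest adjusted p. Lss, Tm7sf2 and the other members are given whatever their call. Members and lists were chosen with earlier results of these data known. Alternatives were a pseudocount of 0.1 FPKM, no filter, a common sum of FPKM, upper quartile scaling, the replicate number as a block, voom on recovered reads, a robust prior variance, and each library left out.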

Additional observations from a re-analysis of the deposited data

How the results depend on the processing

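The number of members that fell, 12, was between 11 and 15 over the 13 alternatives, and 11 of the 12 (all but Mvk) passed in every one of them. The number that rose, 0, became 1 (Scap) with a pseudocount of 0.1 FPKM, upper quartile scaling, the replicate block, voom on recovered reads and a robust prior variance. Leaving out any one library kept it at 0. No member's called direction reversed. Over all genes, 1320 rose and 1487 fell. The number that rose was 848 with no filter on low values, and 817 to 985 without 1 library, the lowest being without DMSO replicate 2 and the next, 864, without haloperidol replicate 1. With the replicate block 12 members fell, and 1344 genes fell and 1208 rose in all. Same-numbered libraries deviated with correlations of 0.009, 0.055 and 0.02, so the numbers were not taken as pairs. Scaling moved the median log2 fold change of all genes from 0.002 to -0.016 (common sum) and 0.026 (upper quartile). The members with fewer than 100 reads in every library were Tm7sf2 (23 to 48), Mvd (35 to 76) and Mbtps2 (44 to 73).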
